A study of Mus musculus with 6 samples.

Results

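Syndecans and glypicans are the main families of heparan sulfate proteoglycans on the cell surface, and mouse has 4 syndecan genes (Sdc1 to Sdc4) and 6 glypican genes (Gpc1 to Gpc6). All 10 were found by gene name among the 46983 genes measured. RNA was sequenced from aortic valves of wild type C57BL/6J mice at postnatal day 2 (PND2), when the leaflets are still growing, and at 4 months, when the mice are adult. There were 3 libraries per age, each made from the pooled valves of 5 to 6 mice, and no treatment is given in the labels for either age. Values are RPKM, the reads on a gene divided by the length of its exons (in kilobases) and by the size of the library.

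Syndecans cross the membrane with a short conserved tail that binds scaffold proteins and the cytoskeleton, and glypicans are held on the outer face of the membrane by a glycosylphosphatidylinositol anchor. Both carry heparan sulfate, a sulfated sugar chain that binds growth factors and morphogens, so that syndecans act chiefly as co-receptors in adhesion and growth factor signaling and glypicans shape Wnt, Hedgehog, BMP and FGF signaling. Heparan sulfate proteoglycans are also part of the matrix of heart valves.

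The coding sequences show how far the members can be told apart by reads. Among the 4 syndecans, aligned coding bases were 67.4 to 77.4% identical over the 6 pairs, and the longest identical run was 29 bases. Among the 6 glypicans, identity ran from 56.9 to 69.2% over 15 pairs, highest for Gpc4 with Gpc6, and the longest identical run was 17 bases. No stretch of 47 bases was shared between transcripts of any members. A stretch that all syndecans share spans the inner end of the membrane segment and the start of the cytoplasmic tail, and its 45 coding bases are given here because they make that likeness visible. Capitals mark the 30 bases that are the same in all 4 genes (mm10, Sdc1 at chr12:8791691-8791735 on the plus strand, Sdc2 at chr15:33032430-33032474 on the plus strand, Sdc3 at chr4:130822696-130822740 on the plus strand and Sdc4 at chr2:164426140-164426184 on the minus strand).
Sdc1: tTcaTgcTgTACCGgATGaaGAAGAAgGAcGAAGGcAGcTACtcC
Sdc2: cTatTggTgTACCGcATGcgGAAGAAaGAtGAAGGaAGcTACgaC
Sdc3: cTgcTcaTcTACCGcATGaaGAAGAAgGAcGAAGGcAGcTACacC
Sdc4: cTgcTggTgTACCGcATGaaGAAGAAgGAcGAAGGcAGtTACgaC

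Library totals, worked back from the value of a single read, ranged from 23810507 to 38994657, and 5.44 to 9.60% of gene reads were mitochondrial. The sex of the pooled mice is not given. Xist, the RNA of the inactive X chromosome, was read at 109, 0.05 and 0.10 RPKM in PND2 libraries 1 to 3 and at 0.15, 110 and 40.8 RPKM in the 4 month libraries, so the pools differed in sex within each age. Markers of endothelial cells, valve interstitial cells and fibroblasts were present in every library, with summed levels at PND2 of 519 to 735 and 6501 to 7152 RPKM. Other tissue was present too. The 8 cardiomyocyte markers summed to 15237 to 18863 RPKM at PND2 and to 4926 to 9024 RPKM at 4 months, and the 6 smooth muscle markers summed to 7382 to 8549 and then to 16638 to 27581 RPKM. In whole valves, fewer cells of a type and less RNA per cell cannot be told apart.

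Summed glypican transcripts were lower at 4 months and summed syndecan transcripts were higher. Summed glypican RPKM was 526, 587 and 593 at PND2 and 239, 220 and 199 at 4 months. The mean was 569 ± 36.9 (SD, n = 3) at PND2, 2.60-fold the mean of 219 ± 19.9 at 4 months. Summed syndecan RPKM was 229, 283 and 250 at PND2 and 308, 289 and 341 at 4 months, with means of 254 ± 27.0 and 313 ± 26.1, a ratio of 1.23. For both families the libraries of the ages did not overlap. The ratio of summed glypican to summed syndecan RPKM within a library was 2.25 ± 0.154 at PND2 and 0.707 ± 0.107 at 4 months, so glypicans were the more abundant family in each PND2 library and syndecans in each 4 month library.

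**Figure D1:**
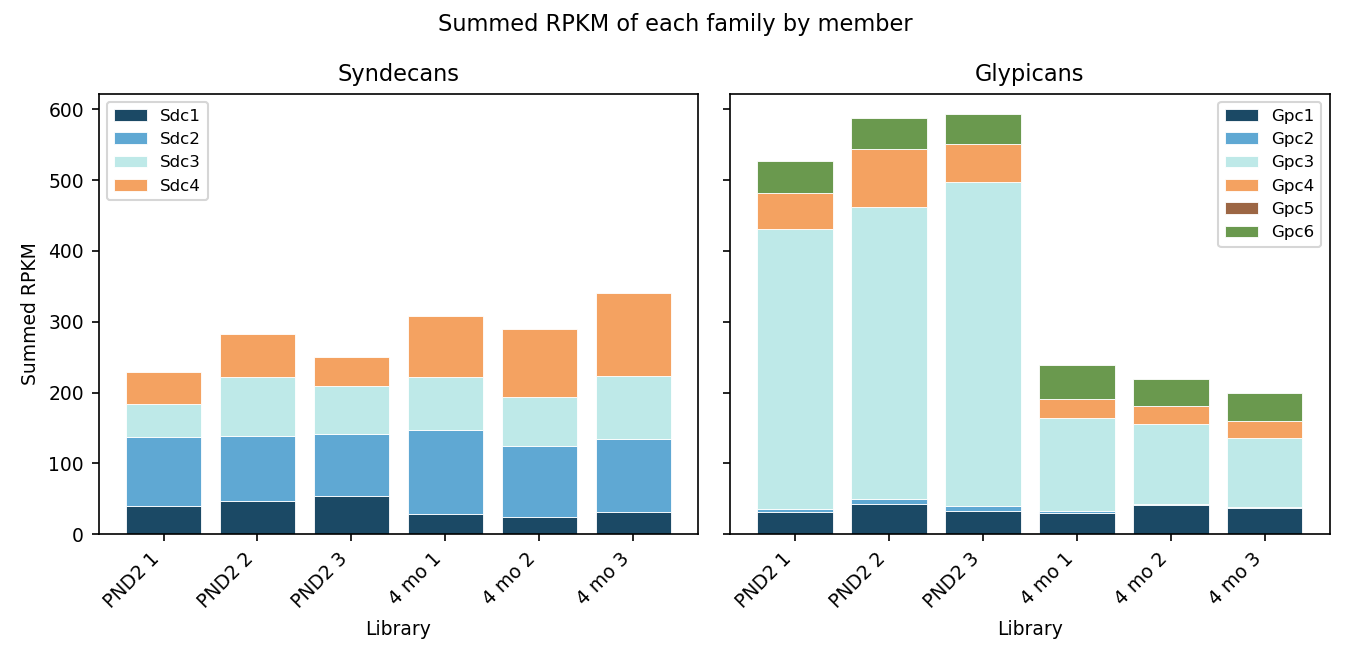
Stacked bars give RPKM (vertical axis) of each family member in each library (horizontal axis, PND2 and 4 month libraries 1 to 3), syndecans on the left and glypicans on the right. The glypican bars reach 526 to 593 RPKM at PND2 and 199 to 239 RPKM at 4 months, and Gpc3 makes up most of the difference, while the Sdc4 segment is taller at 4 months in the syndecan bars.

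The ages were compared for each member with limma, using log2(RPKM + 0.1), in a fit across all genes that reached 0.1 RPKM in 3 or more libraries. P-values were adjusted by Benjamini and Hochberg's method over the 25903 genes tested. A log2 fold change is 4 months minus PND2 on that scale and is given with its standard error. Of the 10 members, 9 passed the filter, and 5 of those had an adjusted p under 0.05. Sdc4 rose, and Sdc1, Gpc2, Gpc3 and Gpc4 fell. Among all genes tested 35.8% passed, 14.7% with higher and 21.1% with lower values at 4 months, so a call in itself was common in these libraries. Of the members, 4 passed with a mean difference of over 2-fold on the log2 scale, against 17.2% of all genes, and 6 had libraries that did not overlap between the ages, against 50.0% of all genes.

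Over all tested genes the log2 fold change had a median of -0.14. When libraries were brought to a common median ratio (median scaling), this became -0.01. That scaling also moved the share of rises among all calls from 41.1 to 53.2%. All 5 called members kept their direction and their call under it, with Sdc1 at -0.62, Sdc4 at 1.15, Gpc2 at -1.61, Gpc3 at -1.76 and Gpc4 at -1.13. When each gene was instead tested alone with an unequal-variance test, the type of test the study used but on the values, filter and threshold used here, 2 members passed, Gpc2 with an adjusted p of 0.0415 and Gpc3 with 0.0247. Sdc1, Sdc4 and Gpc4 then missed the threshold, with adjusted p of 0.0637, 0.0620 and 0.0938.

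**Figure D2:**
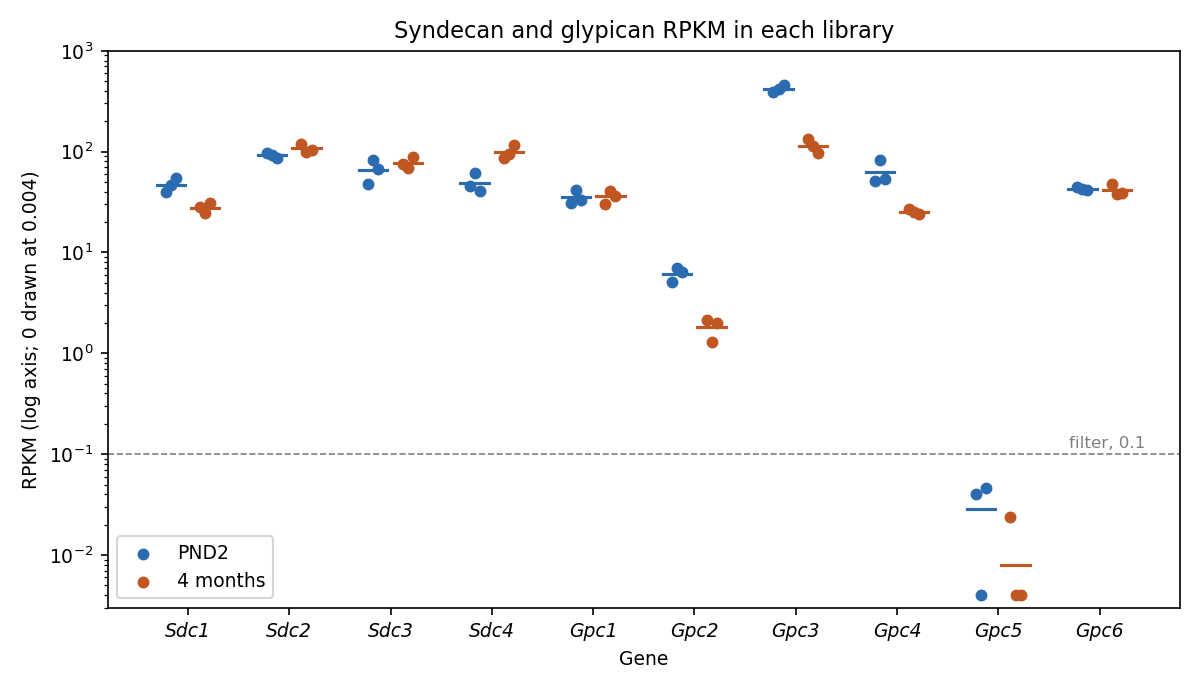
Points are RPKM of each member on a log axis in the 3 PND2 and the 3 4 month libraries, with a short line at the mean of each age. Libraries of the ages are apart for Sdc1, Sdc2, Sdc4, Gpc2, Gpc3 and Gpc4, Gpc5 lies under the filter of 0.1 RPKM in all libraries, and a value of 0 is drawn at 0.004 so that it can be seen.

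Gpc3 had the highest mean of the members at both ages and the largest fitted change of the 9 tested. Its protein restrains body growth and binds Hedgehog and Wnt ligands, and its loss in people causes an overgrowth syndrome. The gene lies on the minus strand of the X chromosome (mm10, chrX:52272426-52613950) and has 10 annotated exons. It was read at 394, 413 and 458 RPKM at PND2 and at 132, 114 and 97.9 RPKM at 4 months. The lowest PND2 library was thus far above the highest 4 month library. The means were 422 ± 32.9 and 115 ± 17.1 RPKM (SD, n = 3), 3.68-fold higher at PND2. The log2 fold change was -1.89 ± 0.13, with an adjusted p of 1.2e-04.

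Gpc4, which modulates FGF, BMP and Wnt signals, is the neighbor of Gpc3 on the X chromosome (chrX:52053021-52165252, minus strand), 107 kb away. It was read at 51.1, 82.2 and 53.2 RPKM at PND2 and at 26.8, 25.4 and 24.1 RPKM at 4 months. All 4 month libraries were lower, and PND2 library 2 stood above the other two of its age. The log2 fold change was -1.25 ± 0.18, with an adjusted p of 0.00222. As both genes are X-linked and the pools differed in sex, the fit was repeated with log2 Xist RPKM as a covariate, which gave -1.82 for Gpc3 with an adjusted p of 3.8e-04 and -1.17 for Gpc4 with an adjusted p of 0.00530. Within a library the ratio of Gpc3 to Gpc4 RPKM was 7.71, 5.03 and 8.61 at PND2 and 4.92, 4.49 and 4.07 at 4 months.

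Gpc2, known from the developing nervous system, was a minor glypican. It was read at 5.06, 7.02 and 6.47 RPKM at PND2 and at 2.14, 1.30 and 2.00 RPKM at 4 months, with no overlap of the ages. Its log2 fold change was -1.73 ± 0.24, with an adjusted p of 0.00196. The value is uncertain as a measure of Gpc2 alone, since 55.6% of its exonic bases (chr5:138273655-138280005, minus strand) also belong to the annotated gene Gm43720 on the same strand. Gm43720 was itself listed at 3.02, 4.46 and 4.09 RPKM at PND2 and at 3.04, 2.27 and 2.78 RPKM at 4 months, ranges that touch.

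The other 3 glypicans showed no called change. Gpc6 (chr14:116925297-117979529, plus strand), whose loss impairs growth of the long bones, was read at 44.8, 42.7 and 41.4 RPKM at PND2 and at 47.4, 38.1 and 38.6 RPKM at 4 months. Its log2 fold change was -0.061 with a 95% interval from -0.32 to 0.20, and it turned to 0.065 under median scaling. Gpc1 (chr1:92831645-92860779, plus strand), a widely expressed co-receptor for FGF, was read at 31.2, 42.0 and 33.3 RPKM at PND2 and at 30.2, 41.2 and 36.4 RPKM at 4 months. Its log2 fold change was 0.017, with a 95% interval from -0.35 to 0.38. For both genes the libraries of the ages overlapped.

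Gpc5 (chr14:115092215-116525179, plus strand), a glypican that can enhance Hedgehog signaling, was at the edge of detection. It had 7, 0 and 6 reads at PND2 and 4, 0 and 0 reads at 4 months, at most 0.0460 RPKM, and was not tested. A library without a read allows a level of up to that of 3 reads. This was 0.0221 RPKM in PND2 library 2 and 0.0283 and 0.0233 RPKM in 4 month libraries 2 and 3. Its neighbor Gpc6, 400 kb downstream, was read at over 38 RPKM in each library.

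Sdc4 (chr2:164424247-164443887, minus strand) was the only member called higher at 4 months in this fit. It is a component of focal adhesions and its tail activates protein kinase C alpha. It was read at 45.2, 60.8 and 40.6 RPKM at PND2 and at 85.7, 94.9 and 117 RPKM at 4 months, so each 4 month library was above each PND2 library. The means were 48.9 ± 10.6 and 99.2 ± 16.0 RPKM (SD, n = 3), a ratio of 2.03. The log2 fold change was 1.03 ± 0.18, with an adjusted p of 0.00442.

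Sdc1 (chr12:8771323-8793715, plus strand), the syndecan best known from epithelia and plasma cells, moved the other way. It was read at 39.8, 47.2 and 54.3 RPKM at PND2 and at 28.1, 24.6 and 30.9 RPKM at 4 months, with no overlap. The log2 fold change was -0.75 ± 0.14, with an adjusted p of 0.00647. The ratio of Sdc4 to Sdc1 RPKM was 1.14, 1.29 and 0.749 in the PND2 libraries and 3.05, 3.86 and 3.78 in the 4 month libraries. Of the 9 plasma cell and B cell markers 2 were called higher, Ighm and Tnfrsf17, and 0 lower. Xbp1, which many secretory cells also express, held most of their sum, with 66.9 to 77.0 RPKM at PND2 and 68.8 to 75.4 RPKM at 4 months. The other 8 summed to 3.97 to 11.8 RPKM at PND2 and to 19.2 to 55.3 RPKM at 4 months. Ighm alone was read at 5.36, 3.04 and 1.88 RPKM at PND2 and at 27.7, 29.6 and 17.5 RPKM at 4 months. Igkc added 20.9 RPKM in 4 month library 2, against 0.55 and 0.58 RPKM in 4 month libraries 1 and 3. The 10 epithelial and mesothelial markers summed to 193 to 290 and then to 133 to 200 RPKM, with 1 called higher and 2 lower. The part of these cells in the Sdc1 values was not tested.

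Sdc2 (chr15:32920723-33034730, plus strand), the syndecan of mesenchymal cells, was read at 96.8, 91.6 and 87.4 RPKM at PND2 and at 119, 100.2 and 104 RPKM at 4 months. The ages did not overlap, but the difference was small. The log2 fold change was 0.22, with a 95% interval from -0.01 to 0.45 and an adjusted p of 0.116, and under median scaling it was 0.35 with an adjusted p of 0.0287, which passed. Sdc3 (chr4:130792537-130826319, plus strand), the syndecan best known from neurons, was read at 47.4, 83.1 and 67.2 RPKM at PND2 and at 75.1, 69.4 and 88.9 RPKM at 4 months. These libraries overlapped, and the log2 fold change of 0.27 had a 95% interval from -0.21 to 0.75 and an adjusted p of 0.350. Of the Sdc3 exonic bases 6.93% are also covered by Gm26716, annotated on the opposite strand, which was listed at 67.2 to 98.2 RPKM at PND2 and at 91.7 to 111 RPKM at 4 months. Whether counting used the strand is not given in the sources used here, so reads of the shared bases cannot be assigned to Sdc3 or its antisense partner.

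**Figure D3:**
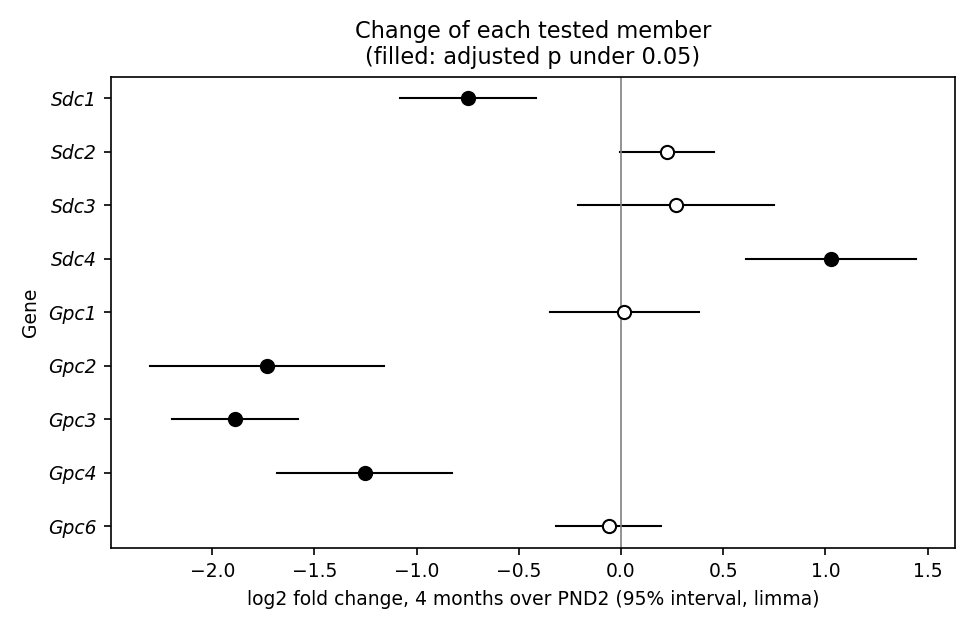
Points are log2 fold changes (horizontal axis, 4 months over PND2) of the 9 members tested, bars are 95% intervals from limma, and filled points have an adjusted p under 0.05. Gpc3, Gpc2, Gpc4 and Sdc1 lie left of 0 with their intervals, Sdc4 lies right of it, and the intervals of Sdc2, Sdc3, Gpc1 and Gpc6 include 0.

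The order of the levels changed with these shifts. At PND2, Gpc3 led, followed by Sdc2 and, at similar levels, by Sdc3, Gpc4, Sdc4, Sdc1, Gpc6 and Gpc1. The PND2 ranges of Gpc3, Sdc2 and Sdc3 were apart from each other, whereas those of each neighboring pair from Sdc3 down to Gpc1 overlapped. At 4 months Gpc3, Sdc2, Sdc4 and Sdc3 led, and the ranges of each neighboring pair among these 4 overlapped. Gpc6, Gpc1, Sdc1 and Gpc4 formed the next group, again with overlap between neighbors and apart from Sdc3 above. Gpc2 and then Gpc5 came last at both ages. Within a library Gpc3 was on average 4.61-fold Sdc2 at PND2 and 1.06-fold Sdc2 at 4 months.

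Within the glypicans, Gpc3 held 74.2 ± 3.51% of the summed RPKM at PND2 and 52.1 ± 3.06% at 4 months. The shares of Gpc6 and Gpc1, whose own levels were not called as changed, went from 7.59 ± 0.81% to 18.9 ± 1.34% and from 6.24 ± 0.81% to 16.6 ± 3.38%. Gpc4 held 10.9 ± 2.71% and 11.6 ± 0.43%, with overlap between the ages. Leaving Gpc3 out, the summed glypican RPKM was 147 ± 23.4 at PND2 and 105 ± 3.05 at 4 months. By reads, which are not per length, Gpc3 held a mean of 59.3% at PND2 and 32.0% at 4 months, and Gpc6 21.2% and 40.6%. The largest glypican at 4 months was thus Gpc3 by RPKM and Gpc6 by reads. Within the syndecans the share of summed RPKM of Sdc4 went from 19.2 ± 2.66% to 31.7 ± 3.37% and that of Sdc1 from 18.6 ± 2.74% to 8.91 ± 0.35%. Sdc2 held 36.6 ± 5.09% and 34.6 ± 4.03%, and Sdc3 25.7 ± 4.49% and 24.8 ± 1.11%, with overlap between the ages.

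Exon values show whether a change rests on a whole gene. Exons with a mean of at least 50 reads over the libraries were compared. For Gpc3, all 10 exons were lower in each 4 month library than in each PND2 library, with log2 ratios of mean RPKM from -1.97 to -1.68. The same held for all 9 exons of Gpc4, from -1.60 to -1.04, and for all 13 such exons of Sdc1, from -1.22 to -0.70. For Sdc4 all 9 such exons were higher, from 0.75 to 1.08. The 8 such exons of Gpc2 were all lower, from -1.89 to -1.40, and all 8 share bases with Gm43720. The 2 Gpc2 exons that share none were under the read minimum, with means of 20 and 31.2 reads, and were lower in each 4 month library too, with log2 ratios of -2.54 and -2.08. Annotated exons of alternative transcripts overlap, and some, as in Sdc1 and Sdc4, are listed more than once with the same bounds and values. The exons of a gene are thus not separate measurements, and these exon counts exceed the number of distinct stretches. Coverage along a gene also differed between libraries. In PND2 libraries 1 to 3 the first Gpc3 exon was read at 172, 237 and 266 RPKM and the last at 257, 235 and 286 RPKM. For Gpc6 the first was read at 17.5, 20.6 and 20.5 RPKM and the last at 73.6, 65.3 and 63.3 RPKM. Among the PND2 libraries, library 1 was thus relatively low at the 5′ end of these genes. At 4 months the first Gpc6 exon was read at 17.7, 14.1 and 12.9 RPKM and the last at 76.1, 61.7 and 64.8 RPKM. Of the exons compared, the last had a higher log2 ratio than the first in each syndecan, Gpc1, Gpc3, Gpc4 and Gpc6. In Gpc2 it was lower. First and last values were -1.55 and -1.04 in Gpc4, -0.43 and 0.27 in Sdc3 and -0.39 and 0.0034 in Gpc6. In Gpc4, Sdc3 and Gpc6 coverage thus leaned more to the 3′ end at 4 months, and the cause was not tested. The ages overlapped for all 18 compared exons of Gpc1, all 18 of Gpc6, all 11 of Sdc3 and 6 of 7 of Sdc2. The Sdc2 exon nearest the 3′ end was higher in each 4 month library, with a log2 ratio of 0.35. The other Sdc2 exons had ratios from -0.03 to 0.16. Between transcripts of Gpc1 and Ankmy1, 18.1% of the Gpc1 stretches of 47 bases are shared, and for Gpc3, Gpc4 and Gpc6 no such stretch occurs in another gene.

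**Figure D4:**
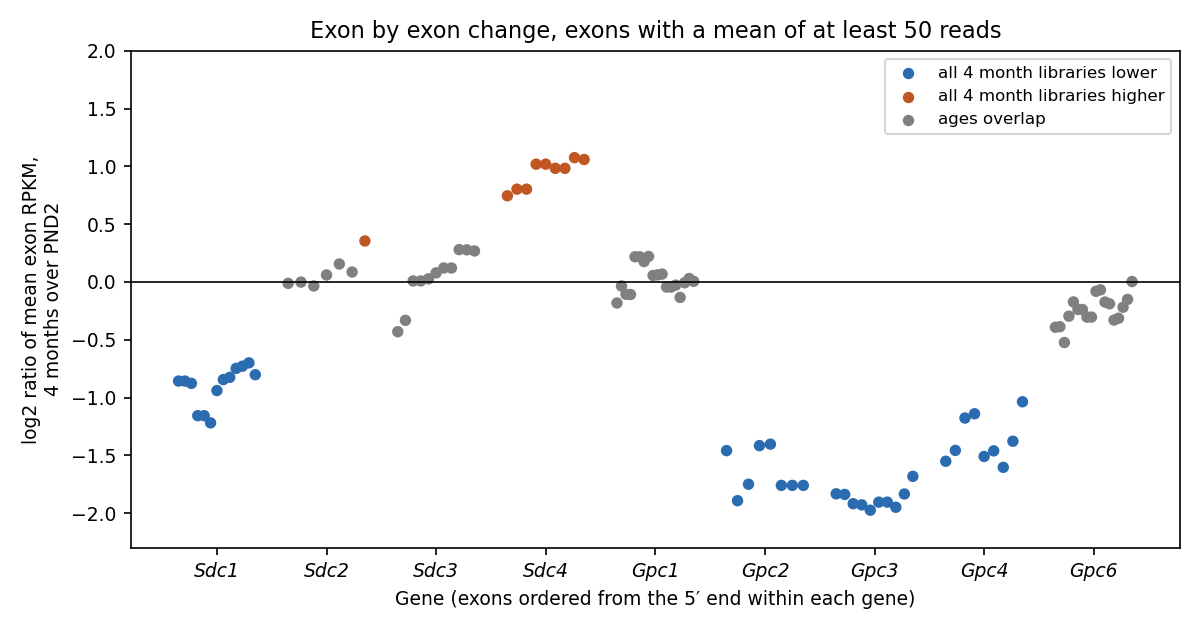
Each point is the log2 ratio of mean exon RPKM, 4 months over PND2 (vertical axis), for an exon with a mean of at least 50 reads, ordered from the 5′ end within each gene. Blue points mark exons lower in each 4 month library, orange points higher and gray points overlapping ages, and the exons of Sdc1, Sdc4, Gpc2, Gpc3 and Gpc4 each lie on 1 side of 0.

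Promoters were read from RefSeq (GRCm38.p6) for the 7 members in the table used, and Sdc2, Gpc1 and Gpc6 were not among them. The 250 bases before the RefSeq transcription start were searched on both strands for 4 motifs. These were the TATA box with the letters TATAAA, the GC box known to be bound by Sp1 with the letters GGGCGG, the CCAAT box, and the E-box with the letters CACGTG, none of which contains another. All 7 held a GC box, from 1 in Gpc4 and Gpc5 to 4 in Sdc4, against 32.7% of all 32851 promoters in the table. Annotated exons cover part of some of these searched stretches. For Gpc4, 0 of the 250 bases lay outside annotated exons, so its GC box lies in exon sequence. For Sdc1 and Gpc2 the longest stretch outside exons was 141 and 182 bases. The TATA box was found only in Gpc5, against 12.4% of all promoters. The CCAAT box was found in Sdc1, Gpc2 and Gpc3, against 33.8%, and the E-box in 0 of the 7, against 6.02%. A match of letters is a description and shows no binding.

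The promoters of the gene that fell most, Gpc3, and of the syndecans that moved in opposite directions are shown as far as they lie outside annotated exons, each 5′ to 3′ on the strand of its gene, with matches to these motifs in capitals. They are Gpc3 at chrX:52613975-52614224 (minus strand), Sdc4 at chr2:164443189-164443438 (minus strand) and Sdc1 at chr12:8771182-8771322 (plus strand).
Gpc3: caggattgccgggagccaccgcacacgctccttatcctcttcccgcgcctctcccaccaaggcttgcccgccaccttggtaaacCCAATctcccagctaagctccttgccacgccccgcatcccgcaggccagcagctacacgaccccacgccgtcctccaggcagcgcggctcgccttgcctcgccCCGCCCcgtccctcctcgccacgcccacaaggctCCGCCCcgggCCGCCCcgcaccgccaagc
Sdc4: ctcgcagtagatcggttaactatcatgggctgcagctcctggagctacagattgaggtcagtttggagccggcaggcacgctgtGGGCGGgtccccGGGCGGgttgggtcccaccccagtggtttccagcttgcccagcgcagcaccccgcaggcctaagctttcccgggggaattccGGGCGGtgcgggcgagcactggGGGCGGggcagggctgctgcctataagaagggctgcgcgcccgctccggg
Sdc1: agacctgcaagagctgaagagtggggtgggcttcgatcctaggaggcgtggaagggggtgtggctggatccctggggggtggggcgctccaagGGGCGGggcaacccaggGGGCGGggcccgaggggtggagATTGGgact
GC boxes number 3 in the Gpc3 stretch, 4 in the Sdc4 stretch and 2 in the Sdc1 stretch, so the genes that fell and the gene that rose alike held these letters.

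The core proteins carry heparan sulfate chains, so 59 further genes were followed in 4 lists by role. Of these 53 were tested, 10 rose and 14 fell, a share of 45.3% called against 35.8% of all genes, and their median log2 fold change was -0.15 against -0.14 for all genes. With the unequal-variance test 9 passed, and of the genes named next Extl1, Extl3, Hs6st2, Hpse, Col15a1, Mmp9 and Notum then missed the threshold, with adjusted p from 0.0514 to 0.113.

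The list for chain initiation and polymerization had the fewest calls of the 4. Of its 12 genes, all tested, 1 rose and 1 fell, with a median of -0.13. Extl1, a glycosyltransferase of the exostosin family, rose from a mean of 1.54 ± 0.39 RPKM (SD, n = 3) to 3.90 ± 0.43, a log2 fold change of 1.31 ± 0.24 with an adjusted p of 0.00597. Extl3, which starts the heparan sulfate chain, fell from a mean of 37.4 ± 4.31 RPKM to a mean of 27.8 ± 1.32, with a log2 fold change of -0.42 ± 0.11 with an adjusted p of 0.0232. That call was lost under median scaling (adjusted p = 0.0611), without the eBayes trend (0.0586) and without PND2 library 2 (0.0777), PND2 library 3 (0.0814), 4 month library 1 (0.0675) or 4 month library 3 (0.0687). B3gat3, which completes the linkage region, was the most abundant of the list with 38.7 ± 2.95 and 34.7 ± 1.42 RPKM and was not called.

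Of the 23 genes for sulfation, epimerization and trimming of the chain 18 were tested, 3 rose and 6 fell, with a median of -0.23. Those that fell included 3 sulfotransferases with the largest falls of the list. Hs6st2, a 6-O-sulfotransferase, was read at 6.28, 11.0 and 8.58 RPKM at PND2 and at 2.23, 1.85 and 1.98 RPKM at 4 months, a log2 fold change of -2.01 ± 0.23 with an adjusted p of 8.4e-04. Ndst3, an N-deacetylase and N-sulfotransferase, fell from a mean of 2.19 ± 0.24 RPKM to 0.75 ± 0.16, with a log2 fold change of -1.44 (-0.87 with a pseudocount of 1) and an adjusted p of 0.00470. Hs2st1, the 2-O-sulfotransferase, fell with a log2 fold change of -1.15 and an adjusted p of 0.00107. Hpse, the heparanase that cuts the chains, rose from a mean of 1.26 ± 0.40 RPKM to 3.03 ± 0.37, with a log2 fold change of 1.25 and an adjusted p of 0.0140. The most abundant gene of the list was Sulf2, which removes 6-O-sulfate outside the cell, with 111 ± 15.2 and 88.0 ± 12.6 RPKM and no call (adjusted p = 0.105).

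In the list set up for other heparan sulfate core proteins, 4 of 11 rose and 3 fell, with a median of -0.05. Which chains the proteins of this list carried in the valves was not measured. Both basement membrane collagens of the list rose. Col18a1, the source of endostatin, was read at 101, 127 and 111 RPKM at PND2 and at 476, 370 and 435 RPKM at 4 months, a log2 fold change of 1.92 ± 0.13 with an adjusted p of 1.2e-04. Col15a1 rose from a mean of 58.0 ± 11.3 RPKM to 160.2 ± 9.90, with a log2 fold change of 1.48 and an adjusted p of 4.5e-04. Agrn, which encodes agrin, fell from a mean of 92.2 ± 13.0 RPKM to 38.6 ± 4.73, with a log2 fold change of -1.25 and an adjusted p of 6.7e-04. Col18a1 thus stood above each syndecan and glypican at 4 months, while Gpc3 stood above it at PND2.

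Of the partners and shedding enzymes 12 of 13 were tested, 2 rose and 4 fell, with a median of -0.20. Mmp14, a membrane metalloproteinase that can shed syndecan-1, was read at 156, 196 and 189 RPKM at PND2 and at 49.3, 38.2 and 42.8 RPKM at 4 months, a log2 fold change of -2.05 ± 0.13 with an adjusted p of 9.0e-05. Notum, a Wnt deacylase that binds glypicans, fell with a log2 fold change of -2.74 ± 0.46 and an adjusted p of 0.00395, from 1.99 ± 0.89 to 0.22 ± 0.13 RPKM. Mmp9, another metalloproteinase that can shed syndecans, rose with a log2 fold change of 3.32 ± 0.43 and an adjusted p of 0.00146, from 0.32 ± 0.25 to 3.76 ± 0.94 RPKM. Both are low genes whose fold depends on the pseudocount, and with a pseudocount of 1 the log2 fold change was -1.26 for Notum and 1.85 for Mmp9, with both still called. Sdcbp, which encodes syntenin and binds the syndecan tail, had values of 52.0 to 60.6 and 60.5 to 65.9 RPKM and was not called.

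**Figure D5:**
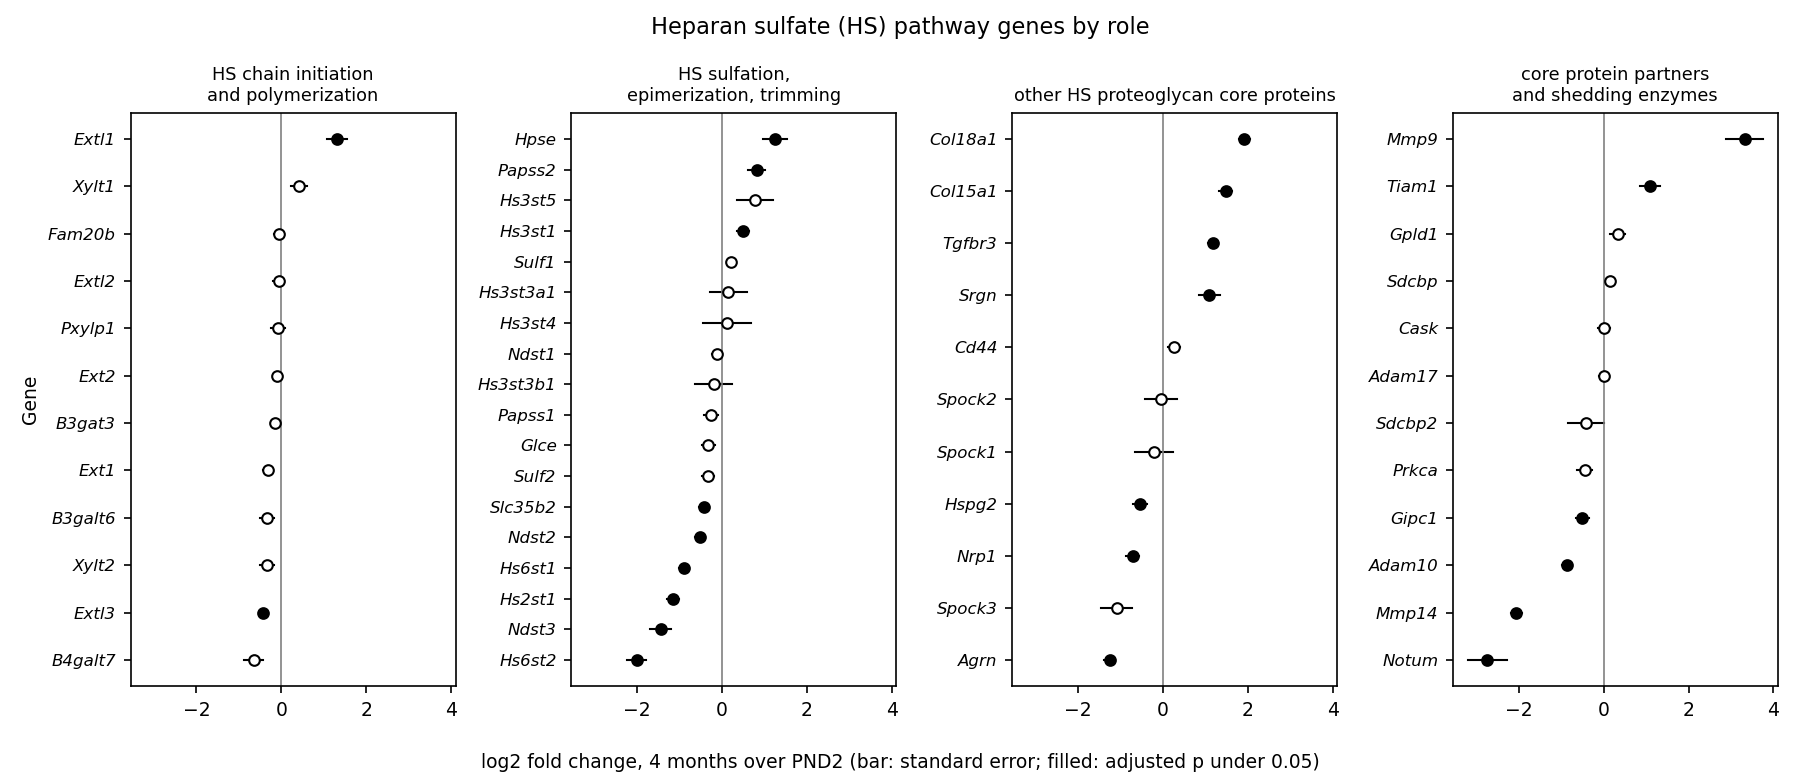
Points are log2 fold changes (horizontal axis, 4 months over PND2) of the tested genes of each list of the heparan sulfate (HS) pathway, bars are standard errors, and filled points have an adjusted p under 0.05. The list for chain initiation and polymerization holds 2 filled points of 12, and Mmp9 at 3.32 and Notum at -2.74 lie farthest from 0 at the pseudocount of 0.1, though with a pseudocount of 1 Mmp14 and Col18a1 did.

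Markers of several cell types moved with age beside these genes. Of 9 endothelial markers 8 fell and their sum went from 519 to 735 down to 293 to 321 RPKM. All 6 markers of cycling cells fell, from sums of 35.7 to 68.8 to sums of 4.42 to 4.80 RPKM, while 5 of 8 cardiomyocyte markers fell and 5 of 6 smooth muscle markers rose. The 6 macrophage markers, of which 5 rose, summed to 255 to 280 and then to 891 to 943 RPKM. Of the 8 markers of valve interstitial cells or fibroblasts 2 rose and 4 fell. No defining marker of these lists was without reads at either age. Their part in the changes of the syndecans, glypicans and pathway genes was not tested.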

How the data were processed

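Libraries of pooled aortic valves were made with a stranded kit. Reads were quality filtered and trimmed by the authors, who used TopHat 2.1.0 for alignment to mm10 and easyRNASeq, in R 3.2.2, for counting on Ensembl annotation. The authors deposited RPKM per gene and per exon. The libraries are labelled biological replicates and were taken as independent.

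Here, genes were found by name, and whole reads were recovered from RPKM, exonic length and library total (100% of values whole within 0.01) for limits of detection, which cover counting error only. Summed over genes, recovered reads exceeded the library total in each library, for example 90673545 against 38994657 in PND2 library 1. A read may thus have been counted more than once, and all read numbers given here are in that unit. The test was limma 3.58.1 (R 4.3.3) with an eBayes trend, applied to log2(RPKM + 0.1) for genes with at least 0.1 RPKM in 3 libraries. Tables and figures were made in Python 3.11.15. The fit was tested on simulated counts of 25617 genes for PND2 against 4 months, where 60.6% of 94 genes planted with a log2 change of 1 and 97.2% of 106 with a log2 change of 2 were found, with 14 false calls. Only these 200 genes were changed, and all genes were given the same assumed spread. In the data 35.8% of genes were called and the spread differs by gene, so these rates need not hold for them. Shared stretches, coding sequences and exons were taken from GENCODE annotation of the same build.

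The members, the lists, the tests and the alternatives were chosen with earlier results of these data known. Named genes are all members and, in each pathway list, the most abundant gene and the 3 with the largest called change at 1 RPKM or more at the higher age. Hs2st1, Sdcbp, Gm43720, Gm26716, Ankmy1, Xist, Ighm, Tnfrsf17, Xbp1 and Fabp4 were named outside that rule, after their values were seen. Alternatives were pseudocounts of 1 and 0.01, other filters, no trend, an unequal-variance test per gene (the study's type of test, without its read minimum, floor and FDR threshold), voom on recovered reads, median scaling, a replicate block, an Xist covariate, each library left out in turn, and shares by reads.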

Additional observations from a re-analysis of the deposited data

How the results depend on the processing

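Of 262 alternative values for 22 results on the members and the counts of calls, 246 were taken as the same. A fold change had to keep its direction and side of the threshold, and a share had to lie within the spread. A count of calls had only to lie within a set fold of the main count, which 16 pathway genes in place of 24 still met. The unequal-variance test left Sdc1 at a log2 fold change of -0.75 (adjusted p = 0.0637), Sdc4 at 1.03 (0.0620) and Gpc4 at -1.25 (0.0938), with 2 of the members called in place of 5, 9 of the pathway genes in place of 24 and 3408 of all genes in place of 9273. Under it the calls of Extl1, Extl3, Hs6st2, Hpse, Col15a1, Mmp9 and Notum were also lost, with adjusted p from 0.0514 to 0.113. A pseudocount of 1 kept the calls of Mmp9, Notum and Ndst3 but moved them to 1.85, -1.26 and -0.87. Median scaling moved Sdc2 to 0.35 (adjusted p = 0.0287) and turned Gpc6 to 0.065 (adjusted p = 0.668). The cause was not tested. By reads, which are not per length, the change in share of the family, 4 months minus PND2 in percentage points, was 8.95 for Sdc4, -0.57 for Gpc2, -27.2 for Gpc3, -1.53 for Gpc4 and 19.4 for Gpc6, against 12.5, -0.25, -22.1, 0.73 and 11.3 by RPKM. Leaving out each library in turn kept the 5 members called in each fit, with Gpc3 from -1.99 to -1.78, Gpc4 from -1.38 to -1.04, Gpc2 from -1.87 to -1.52, Sdc1 from -0.86 to -0.64 and Sdc4 from 0.90 to 1.20. The log2 fold change of Gpc1, which was near 0, ran from -0.087 to 0.14. All genes called numbered 6301 to 8581 and pathway genes called 16 to 28. The ages share replicate numbers, but libraries with the same number did not deviate together (r = 0.044, -0.061 and -0.16), and no library correlated best with its own number. With a replicate block 5 members, 18 pathway genes and 7167 of all genes passed. With 3 pools per age, a change of 2-fold in a single gene could be missed, and at these depths Gpc5 could not be compared between the ages.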

Other observations

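Markers of further cell types, which entered no comparison above, gave these values. Of 6 adipocyte markers 5 rose, and 3 of them were without reads in each PND2 library. These 5 summed to 0.055 to 0.227 RPKM at PND2 and to 74.3 to 289 RPKM at 4 months. Fabp4, which other cells such as endothelial cells also express, was not called, with 63.7 to 147 and 52.5 to 183 RPKM. Of 5 mast cell markers 4 fell, with sums of 119 to 172 and then 55.4 to 71.6 RPKM. Of 6 melanocyte markers 3 fell and 0 rose. Cartilage markers summed to 80.8 to 170 RPKM at PND2 and to 307 to 1062 RPKM at 4 months, with 2 called higher and 1 lower of 6. Of 8 Schwann cell and neuronal markers 2 rose and 1 fell, and of 6 T cell markers 2 rose and 2 fell.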
